A study of Mus musculus with 24 samples.

Results

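Guidance genes encode the semaphorins, ephrins, Slits and netrins, which act as cues between cells, the receptors that read them, and the CRMP proteins, which act inside the cell. They were taken from the count table by symbol, as all genes of the semaphorin (Sema3 to Sema7), plexin, neuropilin, Eph and ephrin families. The Robo, Slit, Unc5, netrin or Dcc, Dpysl and Crmp1 families were taken in the same way. The rule reads symbols and no values, but it was chosen with earlier results of these data known. The rule found 57 of 12310 genes, and 57 of 57 passed the filter on low counts. A further 17 mouse protein-coding genes match it and were not analysed here, among them Dcc, Efna1, Efna4, Ephb4, Sema7a and Slit3.

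MIN6 cells, an insulin-secreting β-cell line from a mouse insulinoma, were cultured at 5.6 mM glucose, and control cells without treatment were compared with cells that had received the L-type calcium channel blocker verapamil (50 µM, 24 h). Both groups were the same line, so the untreated cells were the only reference, and 1 line at 1 dose and 1 time limits the comparison. Messenger RNA was counted by RNA sequencing in 24 libraries, 12 per group. They were placed in 4 experiment sets of 3 libraries per group (sets 1 to 4) by the first digit of each label's description. No source states that this digit is the experiment set, and for the unnumbered libraries set 4 was assigned by elimination. The 3 libraries of a set may be technical replicates, in which case p-values over 12 libraries measure in part the spread between technical repeats, and counts summed per set and group, 4 sums against 4, were therefore tested as well.

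Semaphorins signal through plexins, for most class 3 semaphorins together with neuropilins. Ephrins are bound to the membrane and signal to Eph receptor tyrosine kinases on neighbouring cells and back into their own cell. Slits bind Robo receptors, and netrins bind Dcc and Unc5 receptors. The families are best known from growing axons, but EphA and ephrin-A contacts between β-cells regulate insulin secretion, and β-cells express Slits and Robos.

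Total counts ranged from 12590476 to 32360171 in control and from 21840159 to 44806556 with verapamil, and levels are given as counts per 1000000 (CPM) scaled by TMM factors. The verapamil libraries varied more, with a common biological coefficient of variation of 0.274 against 0.102 in control. They also followed transcript composition: the correlation over genes between a library's deviation from the control mean and the GC content of the transcript was -0.18 to 0.16 in control and 0.036 to 0.63 with verapamil, and that with exon length was -0.13 to 0.12 and -0.54 to -0.033. The lowest value, -0.54, belonged to an unnumbered verapamil library of set 4, which held the lowest verapamil value of 30 of the 57 guidance genes. Of the β-cell markers, 9 of 11 were in the table, summing to 3042 to 4097 CPM in control and 2799 to 3687 CPM with verapamil; Mafa and Nkx2-2 rose and Ins2, Iapp, Slc2a2 and Slc30a8 fell. Of the neuronal markers, 5 of 8 were in the table, summing to 318 to 361 CPM in control and 106 to 333 CPM with verapamil; Map2, Elavl4 and Slc17a7 fell, Rbfox3 rose, and Tubb3 had a log2 fold change of 0.045. Among the α-cell markers, glucagon was in the table (174 to 198 CPM in control, 176 to 333 CPM with verapamil, rose), and among the fibroblast markers Pdgfra was (0.67 to 1.45 and 0.092 to 1.20 CPM, fell). No row was found for the 2 δ-cell, 6 endothelial and 4 immune markers. In bulk RNA, fewer cells of a kind and less RNA per cell cannot be told apart.

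With verapamil, 28 of the 57 guidance genes fell and 8 rose at an adjusted p under 0.05 (edgeR quasi-likelihood test, Benjamini-Hochberg over 12306 genes), and 21 did not pass. These are 49.1% lower and 14.0% higher, where of all genes tested 31.6% fell and 31.2% rose. On the log2 scale, the median difference was -0.29 over the guidance genes and -0.0033 over all genes. Of 27 genes that encode cues, 16 fell and 2 rose (median -0.37), and of 25 that encode their receptors, 11 fell and 5 rose (median -0.29); the difference between cues and receptors was not tested. Without the verapamil library of set 4 that stood apart, 9 guidance genes rose and 28 fell, where 31.4% and 32.3% of all genes did.

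The separation of the groups was complete for few genes. In 8 genes, Sema3d, Nrp1, Plxnb1, Epha1, Efnb1, Slit1, Slit2 and Dpysl3, 12 of 12 verapamil libraries lay below every control library, which was so for 5.18% of all genes. Ephb6 alone lay above every control library in 12 of 12, which was so for 4.95% of all genes.

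**Figure D1:**
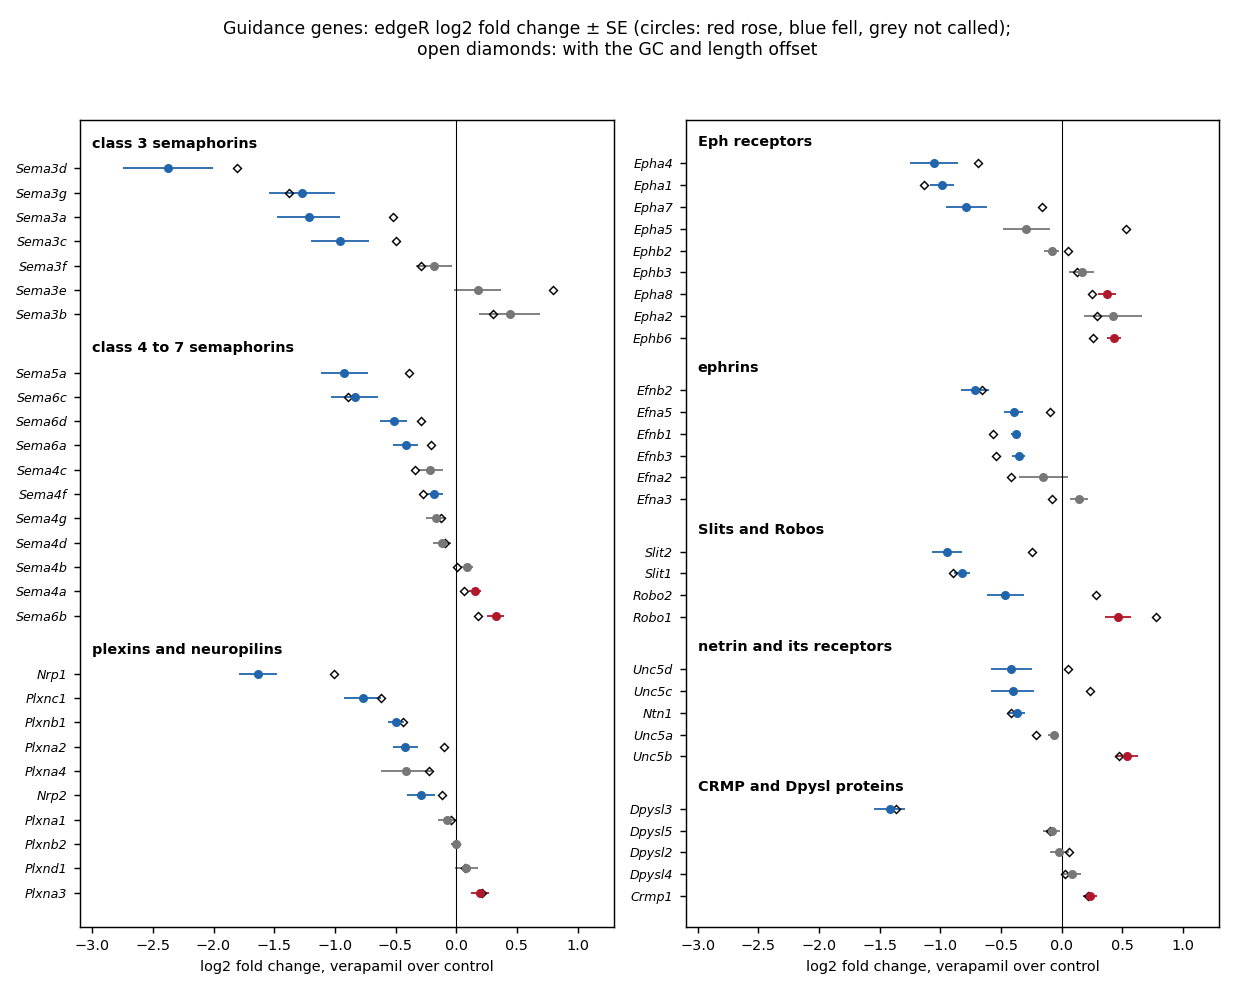
The log2 fold change of verapamil over control is plotted for the 57 guidance genes by role, with bars for the SE, red for genes that rose, blue for genes that fell and grey for genes that were not called. Open diamonds give the value with the GC and length offset. Most class 3 semaphorins, Nrp1 and Dpysl3 lie far to the left, Unc5b, Robo1 and Ephb6 lie to the right, and the diamond of Robo2 lies on the other side of 0.

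Since verapamil libraries followed GC content and length, the calls were repeated with these trends removed from each library (the GC and length offset) and with each library's GC and length slopes as covariates. With the offset, 24 guidance genes fell and 11 rose (24.6% and 33.1% of all genes), and the median over guidance genes was -0.11. With the covariates, 18 fell and 12 rose (14.1% and 21.1% of all genes), and with sums per set 22 fell and 5 rose (17.3% and 24.4% of all genes). The cues stood at 16 that fell and 2 that rose with the offset (median -0.29) and at 11 and 1 with the covariates (median -0.23). The receptors did not keep their fall: 7 fell and 8 rose with the offset (median 0.052), and 5 fell and 9 rose with the covariates (median 0.040). In all 4 fits 17 guidance genes kept their call: Sema3d, Sema3g, Sema6c, Nrp1, Plxnc1, Plxnb1, Epha1, Efnb1, Efnb2, Efnb3, Slit1, Ntn1 and Dpysl3 fell, and Ephb6, Epha8, Robo1 and Unc5b rose. Sema3g, at few counts, passed with the covariates only narrowly (edgeR adjusted p = 0.048). The share of all genes that kept their call is not given here, so the 17 cannot be set against it.

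The promoters of Sema3d, Efnb1, Slit2 and Ephb6 are shown as examples of genes whose groups did not overlap, with the first 3 below and the last above control. They are the bases before the RefSeq start on GRCm38.p6, plus strand, cut where the annotated gene begins, with capitals marking a CCAAT box (CCAAT), a GC box (GGGCGG) or a TATA box (TATAAA) on either strand. The regions are chr5:12382916-12383165, chrX:99135811-99136060, chr5:47982905-47983137 and chr6:41605261-41605481.
Sema3d: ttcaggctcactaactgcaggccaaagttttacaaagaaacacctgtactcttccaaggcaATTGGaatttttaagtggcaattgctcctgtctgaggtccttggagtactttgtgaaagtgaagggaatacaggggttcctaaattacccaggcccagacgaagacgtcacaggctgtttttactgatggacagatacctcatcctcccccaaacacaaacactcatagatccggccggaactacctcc
Efnb1: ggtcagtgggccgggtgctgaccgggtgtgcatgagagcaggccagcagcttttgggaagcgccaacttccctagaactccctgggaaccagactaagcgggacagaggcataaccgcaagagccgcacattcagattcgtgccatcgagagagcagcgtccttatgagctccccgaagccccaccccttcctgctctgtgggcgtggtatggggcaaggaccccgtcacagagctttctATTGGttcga
Slit2: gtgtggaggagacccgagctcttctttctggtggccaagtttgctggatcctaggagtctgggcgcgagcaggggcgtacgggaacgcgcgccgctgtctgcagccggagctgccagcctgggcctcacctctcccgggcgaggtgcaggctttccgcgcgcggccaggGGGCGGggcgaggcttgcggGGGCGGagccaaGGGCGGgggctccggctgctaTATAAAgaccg
Ephb6: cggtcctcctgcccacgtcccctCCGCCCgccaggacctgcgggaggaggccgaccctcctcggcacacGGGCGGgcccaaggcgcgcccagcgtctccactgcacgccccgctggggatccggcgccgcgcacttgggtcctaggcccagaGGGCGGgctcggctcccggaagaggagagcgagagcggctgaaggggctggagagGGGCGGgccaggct

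The GC content of these windows was 46.8% for Sema3d, 60.0% for Efnb1, 70.4% for Slit2 and 76.5% for Ephb6, against a median of 52.4% over all RefSeq promoters. Plxnb1 and Epha1 also lay below every control library, and their windows are not printed. These held 3 GC boxes each and no CCAAT or TATA box, at 72.9% and 54.4% GC. The printed windows are thus no basis for a contrast between genes that fell and genes that rose. A GC box was found once or more in 17 of 27 promoter windows of guidance genes that fell (22 genes with a RefSeq window), in 11 of 13 of those that rose (8 genes) and in 18 of 21 of those not called (15 genes), against 32.7% of 32851 windows of 250 bases over all genes. A CCAAT box was found in 8, 3 and 3 of the guidance gene windows, in the same order, against 33.9% of the background. A TATA box was found in 2, 0 and 0, against 12.4%. The cyclic AMP response element TGACGTCA was found in 0, 0 and 1 windows and the E-box CACGTG in 2, 1 and 1, against 1.55% and 6.02% of the background. Both strands were read, and the motifs do not overlap each other by their letters. A match describes the letters of the window and not the binding of a factor.

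Class 3 semaphorins are the secreted branch of the family. Of 7 measured, 4 fell and 3 did not pass, and the median log2 fold change was -0.96. With the offset 4 fell and 1 rose (median -0.50), and with the covariates 2 fell and 1 rose (median -0.38). Without correction, with the offset and with the covariates, 31.6%, 24.6% and 14.1% of all genes fell and 31.2%, 33.1% and 21.1% rose. Sema3d (ENSMUSG00000040254, chromosome 5, 12383385 to 12588948) ranged from 7.88 to 11.4 CPM in control (median 9.19) and from 0.18 to 5.997 CPM with verapamil (median 1.08), or 108 to 317 and 4 to 166 counts. Each verapamil library lay below each control library. Its mean was 9.37 ± 1.04 CPM in control and 1.77 ± 1.79 CPM with verapamil (SD, n = 12), a 5.18-fold lower level (log2 fold change -2.37, SE 0.37, edgeR adjusted p = 9.4e-06). The fall of Sema3d was deepest in sets 2 and 3 (-4.03 and -3.47) and shallower in sets 1 and 4 (-1.80 and -1.63), although this difference did not pass the interaction test (edgeR adjusted p = 0.12).

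Sema3a, a repellent of sensory and sympathetic axons, was near the lower limit of the counts (8 to 43 counts in control, 4 to 31 with verapamil). It ranged from 0.64 to 1.95 CPM in control (median 0.98) and from 0.14 to 0.97 CPM with verapamil (median 0.35), and 8 of 12 verapamil libraries lay below every control. It fell 2.32-fold (log2 -1.22, SE 0.26, edgeR adjusted p = 0.00036). Sema3c ranged from 3.41 to 5.86 CPM in control (median 4.07) and from 0.83 to 4.82 CPM with verapamil (median 1.73). The groups overlapped in 2 verapamil libraries, and the level fell 1.94-fold (log2 -0.96, SE 0.24, edgeR adjusted p = 0.0014). Sema3g, under 1 CPM in both groups, fell by 1.27 on the log2 scale (edgeR adjusted p = 0.00034). Sema3f (-0.18), Sema3e (0.18) and Sema3b (0.44) did not pass the test. With the GC and length offset the values were -1.81 for Sema3d, -0.52 for Sema3a, -0.50 for Sema3c and 0.80 for Sema3e, which then passed the test upward (edgeR adjusted p = 3.1e-05). Sema3c no longer passed as sums per set (edgeR adjusted p = 0.059), and neither Sema3a nor Sema3c passed with the covariates (edgeR adjusted p = 0.28 and 0.63). With the covariates Sema3d shrank to -0.999 but still passed (edgeR adjusted p = 1.2e-05).

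Semaphorins of classes 4 to 7 are mostly anchored in the membrane. Of 11 measured, 5 fell, 2 rose and 4 did not pass, with a median log2 fold change of -0.18, where 31.6% of all genes fell and 31.2% rose. Sema5a, which carries thrombospondin repeats, ranged from 1.93 to 3.98 CPM in control (median 3.20) and from 0.56 to 2.73 CPM with verapamil (median 1.81). In 7 of 12 verapamil libraries it lay below every control, and it fell 1.89-fold (log2 -0.92, SE 0.19, edgeR adjusted p = 0.00028). Sema6c ranged from 0.93 to 2.21 CPM in control (median 1.34) and from 0.28 to 1.30 CPM with verapamil (median 0.75). It fell 1.79-fold (log2 -0.84, SE 0.19, edgeR adjusted p = 0.00069), with 9 of 12 verapamil libraries below every control.

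Sema6d and Sema6a, transmembrane semaphorins that bind A-type plexins, were expressed at about the same level. Sema6d ranged from 9.56 to 12.0 CPM in control (median 10.8) and from 4.94 to 11.3 CPM with verapamil (median 7.48), and fell 1.43-fold (log2 -0.51, SE 0.11, edgeR adjusted p = 0.00040). Sema6a ranged from 10.2 to 12.3 CPM in control (median 11.3) and from 4.15 to 10.9 CPM with verapamil (median 8.24), and fell 1.33-fold (log2 -0.41, SE 0.10, edgeR adjusted p = 0.0015). For both genes the groups overlapped, with 10 and 9 of 12 verapamil libraries below every control. With the offset the values of Sema5a, Sema6d and Sema6a shrank to -0.39, -0.29 and -0.20, still past the threshold, while Sema6c stood at -0.89. With the covariates Sema5a, Sema6d and Sema6a did not pass (edgeR adjusted p = 0.19, 0.41 and 0.46).

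The class 4 semaphorin with the highest level per exon length was Sema4b, at 15.1 CPM per kb in control and 15.99 with verapamil. Sema4b ranged from 80.0 to 93.9 CPM in control (median 84.4) and from 74.3 to 101.4 CPM with verapamil (median 88.2). The groups overlapped, and the log2 fold change of 0.086 did not pass (SE 0.050, edgeR adjusted p = 0.13). Among other fits it passed without the verapamil library of set 4 that stood apart (0.10, edgeR adjusted p = 0.044), without set 1 (0.16, p = 0.027) and within set 2 (0.24, p = 0.0097), while with the offset it was 0.0031 (p = 0.94). Of the others, Sema6b rose (log2 0.33, edgeR adjusted p = 0.00035), Sema4a rose (0.16, p = 0.0075) and Sema4f fell (-0.18, p = 0.027), by the same edgeR test. Sema4a did not pass with the offset (p = 0.22), as sums (p = 0.063) or with the covariates (p = 0.17), Sema4f did not as sums (p = 0.058) or with the covariates (p = 0.32), and Sema6b did not with the covariates (p = 0.051; all edgeR, adjusted). Sema4c (-0.21), Sema4g (-0.17) and Sema4d (-0.11), the ligand of plexin-B1, did not pass. An exon of another gene on the opposite strand overlaps 7.27% of the Sema4c exons, and no source used here states whether strand was used in the counting.

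**Figure D2:**
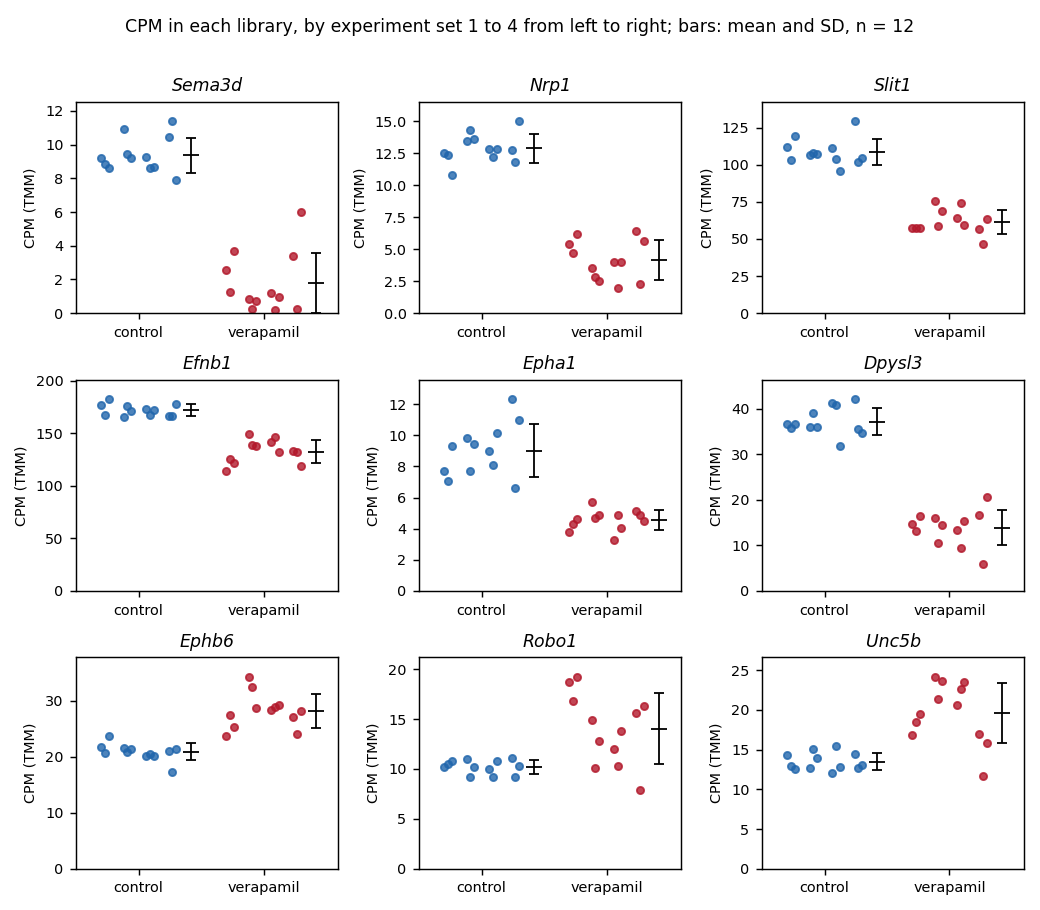
CPM is plotted for each library of control (blue) and verapamil (red) in 9 guidance genes, with experiment sets 1 to 4 from left to right within a group and bars for the mean and SD (n = 12). Sema3d, Nrp1, Slit1, Efnb1, Epha1 and Dpysl3 lie below every control library, and Sema3d and Nrp1 lie low in sets 2 and 3 and in 1 library of set 4 (the SD bar of Sema3d ends at the axis). Ephb6 lies above every control library, while Robo1 and Unc5b overlap with control in a few libraries.

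Among the receptors of semaphorins, 5 of 10 fell, 1 rose and 4 did not pass, with a median log2 fold change of -0.35, where 31.6% of all genes fell and 31.2% rose. Of these 10, 3 fell and 1 rose with the offset (median -0.11), against 24.6% and 33.1% of all genes. With the covariates 3 fell and 1 rose (median -0.050), against 14.1% and 21.1% of all genes. The median of these receptors thus depends on the treatment of GC content and length. Nrp1, the co-receptor of Sema3a and of vascular endothelial growth factor (ENSMUSG00000025810, chromosome 8, 128358604 to 128503363), fell most. It ranged from 10.8 to 15.0 CPM in control (median 12.8) and from 1.93 to 6.47 CPM with verapamil (median 4.01), with no overlap. Its mean was 12.9 ± 1.12 CPM and 4.13 ± 1.56 CPM (SD, n = 12), a 3.10-fold lower level (log2 -1.63, SE 0.16, edgeR adjusted p = 7.4e-09), and it was lower in each set (-1.14, -2.23, -1.91 and -1.47). With the offset the log2 fold change of Nrp1 was -1.01 (edgeR adjusted p = 2.8e-12). Nrp2, its paralogue, fell by 0.29 on the log2 scale (edgeR adjusted p = 0.027), but did not pass with the offset (p = 0.25), as sums (p = 0.086), with the covariates (p = 0.74) or without 1 control library of set 4.

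Plxnc1, the receptor of Sema7a, ranged from 45.4 to 59.2 CPM in control (median 53.4) and from 15.1 to 47.5 CPM with verapamil (median 28.3). The groups overlapped in 2 verapamil libraries, and the level fell 1.71-fold (log2 -0.77, SE 0.15, edgeR adjusted p = 0.00015). The value of Plxnc1 was -0.62 with the offset (edgeR adjusted p = 0.00018) and -0.18 with the covariates (p = 0.035). The fall differed between sets (-0.53, -1.23, -1.26 and -0.35, interaction edgeR adjusted p = 0.042), and Plxnc1 and Epha2 were the 2 guidance genes to pass this test, which 9.72% of all genes passed. Plxnb1, the receptor of Sema4d (chromosome 9, 109095389 to 109119917), ranged from 65.8 to 73.3 CPM in control (median 70.2) and from 29.9 to 57.1 CPM with verapamil (median 50.4), with no overlap. It fell 1.41-fold (log2 -0.50, SE 0.066, edgeR adjusted p = 1.1e-06) and by similar amounts in the 4 sets (-0.56, -0.39, -0.38 and -0.70). Plxna2 ranged from 9.08 to 12.8 CPM in control (median 11.5) and from 3.79 to 9.86 CPM with verapamil (median 8.45). It fell 1.34-fold (log2 -0.42, SE 0.10, edgeR adjusted p = 0.0012) and did not pass with the offset (-0.10, p = 0.27) or with the covariates (-0.22, p = 0.0505).

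The plexin with the highest level was Plxnb2, at 70.1 CPM per kb in both groups. It ranged from 515 to 586 CPM in control (median 539.9) and from 446 to 604 CPM with verapamil (median 540.3), with a log2 fold change of -0.0016 (SE 0.043, edgeR adjusted p = 0.98). Plxna3 rose by a log2 fold change of 0.20 (edgeR adjusted p = 0.022) but did not pass as sums (p = 0.065). Plxna4 (-0.41), Plxna1 (-0.079) and Plxnd1 (0.084), the receptor of Sema3e, did not pass. A gene on the opposite strand overlaps 10.7% of the Plxna1 exons.

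Of 9 Eph receptors, 3 fell, 2 rose and 4 did not pass, a share of falls near the 31.6% of all genes, with a median log2 fold change of -0.084. With the offset 3 fell and 3 rose and the median turned to 0.12, and with the covariates 1 fell and 3 rose (median 0.059). Epha4 ranged from 1.61 to 3.32 CPM in control (median 2.22) and from 0.23 to 1.87 CPM with verapamil (median 1.06), and 11 of 12 verapamil libraries lay below every control. It fell 2.07-fold (log2 -1.05, SE 0.20, edgeR adjusted p = 9.3e-05). Epha1 (ENSMUSG00000029859, chromosome 6, 42358487 to 42373268) ranged from 6.63 to 12.3 CPM in control (median 9.14) and from 3.29 to 5.70 CPM with verapamil (median 4.63), with no overlap. It fell 1.98-fold (log2 -0.99, SE 0.099, edgeR adjusted p = 1.4e-08) and by a like amount in each set (-0.93, -0.84, -1.14 and -1.05). Its neighbour Zyx, which overlaps 6.01% of the Epha1 exons on the opposite strand, had a log2 fold change of 0.073 (edgeR adjusted p = 0.33).

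Epha7 was the most abundant of the 3 Eph receptors that fell and ranged from 30.2 to 39.3 CPM in control (median 33.0) and from 9.18 to 33.6 CPM with verapamil (median 15.8). In 10 of 12 verapamil libraries it lay below every control, and it fell 1.72-fold (log2 -0.78, SE 0.17, edgeR adjusted p = 0.00038). With the offset the difference of Epha7 was -0.16 (edgeR adjusted p = 0.0049), and that of Epha4 was -0.69. With the covariates neither passed (edgeR adjusted p = 0.25 for Epha7 and 0.10 for Epha4), while Epha1 stood at -1.0008.

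Ephb6, an Eph receptor whose kinase domain is catalytically inactive (ENSMUSG00000029869, chromosome 6, 41605482 to 41620509), ranged from 17.3 to 23.8 CPM in control (median 21.04) and from 23.8 to 34.3 CPM with verapamil (median 28.3). The lowest verapamil library lay just above the highest control. It rose 1.35-fold (log2 0.43, SE 0.058, edgeR adjusted p = 1.4e-06), and with the offset its value was 0.26 (p = 0.00040). Epha8, the Eph receptor with the highest level per exon length (5.63 CPM per kb in control, 7.31 with verapamil), ranged from 19.1 to 31.1 CPM in control (median 27.0) and from 28.5 to 40.2 CPM with verapamil (median 35.0). In 9 of 12 verapamil libraries it lay above every control, and it rose 1.30-fold (log2 0.38, SE 0.075, edgeR adjusted p = 0.00018). Epha5 (-0.29), Ephb2 (-0.084), Ephb3 (0.16) and Epha2 (0.42) did not pass, and Epha2 went different ways in the sets (0.13, 0.81, 1.70 and -0.60, interaction edgeR adjusted p = 0.037). With the offset Epha5, whose transcript has a GC content of 40.1%, passed upward at 0.53 (edgeR adjusted p = 8.3e-05).

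Ephrins are the ligands of the Eph receptors. Of 6, 4 fell and 2 did not pass, with a median difference of -0.36 (log2), where 31.6% of all genes fell and 31.2% rose. The 3 transmembrane B-type ephrins all fell. Efnb2 ranged from 13.7 to 17.3 CPM in control (median 15.6) and from 5.73 to 14.1 CPM with verapamil (median 9.35), and 11 of 12 verapamil libraries lay below every control. It fell 1.64-fold (log2 -0.71, SE 0.12, edgeR adjusted p = 2.0e-05). The value of Efnb2 was -0.66 with the offset (edgeR adjusted p = 4.8e-06) and shrank to -0.23 with the covariates (p = 0.017). Efnb1 was the most abundant ephrin per exon length, at 49.8 CPM per kb in control and 38.4 with verapamil (chromosome X, 99136130 to 99148991). It ranged from 165 to 183 CPM in control (median 171) and from 114 to 149 CPM with verapamil (median 132), with no overlap. It fell 1.30-fold (log2 -0.38, SE 0.042, edgeR adjusted p = 7.4e-08), by -0.55, -0.28, -0.28 and -0.41 in the 4 sets.

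Efnb3 ranged from 26.7 to 35.6 CPM in control (median 30.9) and from 21.5 to 28.3 CPM with verapamil (median 23.9), and fell 1.28-fold (log2 -0.35, SE 0.053, edgeR adjusted p = 5.5e-06). For Efnb1 and Efnb3 the offset gave larger falls, -0.56 and -0.54. Efna5, a lipid-anchored ephrin with a role in contacts between β-cells, ranged from 31.3 to 40.5 CPM in control (median 33.9) and from 17.6 to 31.5 CPM with verapamil (median 28.1). It fell 1.32-fold (log2 -0.40, SE 0.079, edgeR adjusted p = 0.00017), with 11 of 12 verapamil libraries below every control, but did not pass with the offset (-0.09, p = 0.29) or the covariates (p = 0.11). Efna2 (-0.15) and Efna3 (0.14) did not pass, and an exon on the opposite strand overlaps 14.1% of the Efna3 exons.

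**Figure D3:**
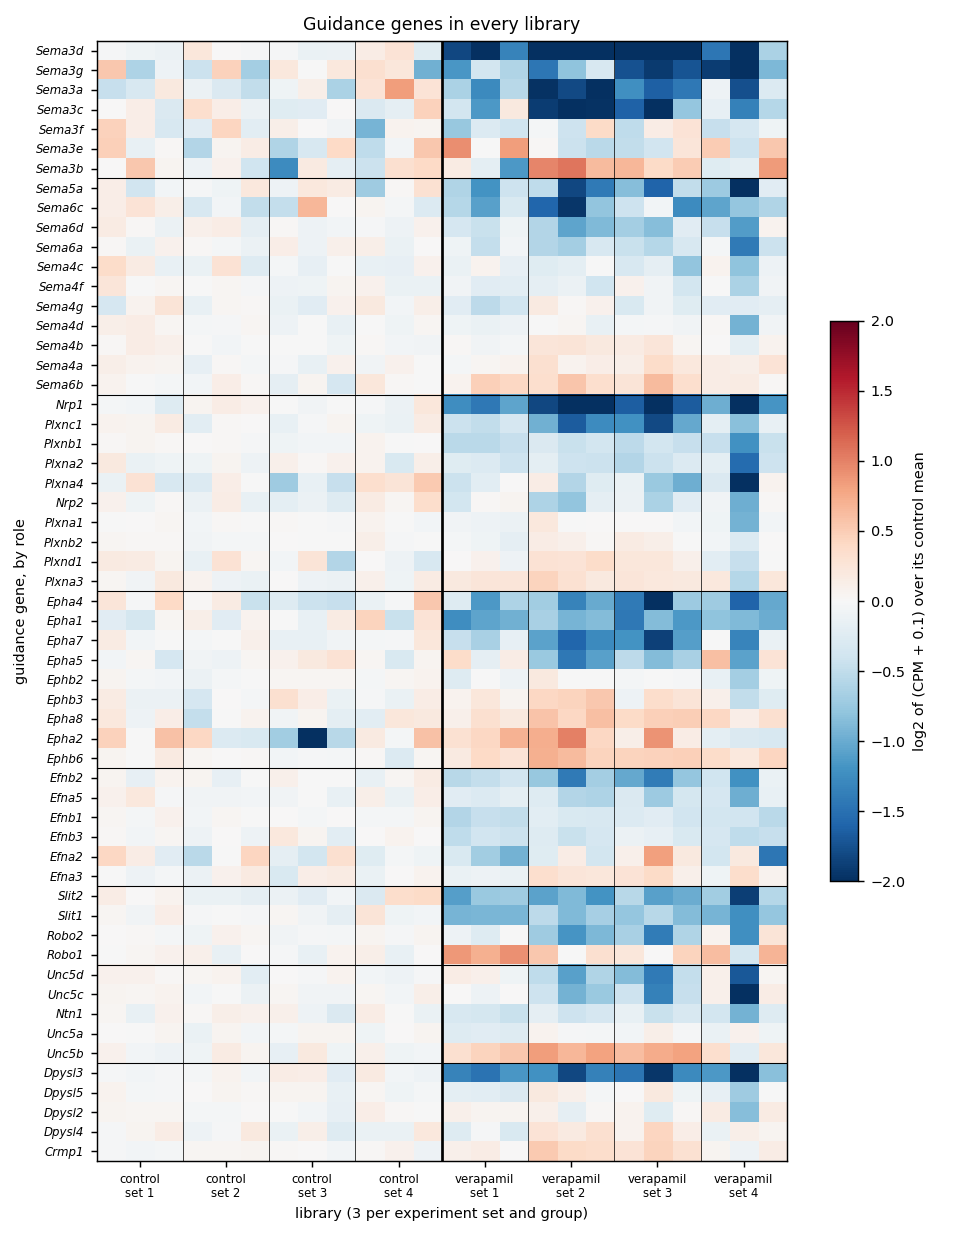
Each row is a guidance gene and each column a library, and the colour gives log2 of CPM + 0.1 over its control mean, cut at -2 and 2. Rows that are blue over the 12 verapamil libraries include Sema3d, Nrp1, Slit1 and Dpysl3, while those of Robo2 and Unc5c are blue in some libraries only. The middle verapamil library of set 4 holds the lowest verapamil value of 30 of the 57 genes.

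Both Slits fell, while their receptors went different ways, and the median of the 4 genes was -0.64 on the log2 scale, 0.016 with the offset and -0.26 with the covariates. Slit1 was the more abundant, at 18.3 CPM per kb in control and 10.4 with verapamil (ENSMUSG00000025020, chromosome 19, 41600257 to 41743665). It ranged from 95.6 to 129 CPM in control (median 107) and from 46.3 to 75.7 CPM with verapamil (median 59.2), with no overlap. Its mean was 109 ± 8.87 CPM and 61.6 ± 8.18 CPM (SD, n = 12), a 1.76-fold lower level (log2 -0.82, SE 0.065, edgeR adjusted p = 2.4e-10), and the fall was close to this in each set (-0.97, -0.68, -0.65 and -1.01) and with the offset (-0.89). Slit2 ranged from 3.81 to 6.12 CPM in control (median 4.40) and from 1.20 to 3.16 CPM with verapamil (median 2.40), with no overlap. It fell 1.92-fold (log2 -0.94, SE 0.12, edgeR adjusted p = 6.8e-07). The exons of Slit2 add up to 25433 bases, and with the offset its value was -0.25 and did not pass (edgeR adjusted p = 0.11), whereas with the covariates it was -0.69 (p = 0.00042).

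Robo2 was the more abundant Robo, at 7.67 CPM per kb in control and 5.56 with verapamil. It ranged from 123 to 138 CPM in control (median 129.6) and from 49.4 to 156 CPM with verapamil (median 84.4). While 9 of 12 verapamil libraries lay below every control, 1 lay above every control. It fell 1.38-fold (log2 -0.46, SE 0.15, edgeR adjusted p = 0.0097) and did not pass as sums (p = 0.079). With the offset Robo2 turned to 0.28 (edgeR adjusted p = 1.9e-06) and with the covariates to 0.18 (p = 0.0019), so the direction of Robo2 depends on the treatment of GC content and length. Robo1 ranged from 9.16 to 11.1 CPM in control (median 10.3) and from 7.94 to 19.3 CPM with verapamil (median 14.4), with 9 of 12 verapamil libraries above every control and 1 below. It rose 1.38-fold (log2 0.46, SE 0.11, edgeR adjusted p = 0.00099), by 0.79, 0.29, 0.28 and 0.38 in the 4 sets, and by 0.77 with the offset.

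Of netrin and the Unc5 receptors, 3 of 5 fell, 1 rose and 1 did not pass, with a median log2 fold change of -0.37. With the offset 2 fell and 2 rose (median 0.052), and with the covariates 2 fell and 3 rose (median 0.26). Without correction, with the offset and with the covariates, 31.6%, 24.6% and 14.1% of all genes fell and 31.2%, 33.1% and 21.1% rose. Ntn1, the secreted cue, ranged from 42.002 to 57.4 CPM in control (median 52.9) and from 26.8 to 46.4 CPM with verapamil (median 40.5), and 9 of 12 verapamil libraries lay below every control. It fell 1.29-fold (log2 -0.37, SE 0.068, edgeR adjusted p = 7.7e-05) and by -0.42 with the offset. Unc5b, a netrin receptor that can signal for cell death without its ligand, ranged from 12.0 to 15.4 CPM in control (median 12.98) and from 11.6 to 24.2 CPM with verapamil (median 20.1). In 11 of 12 verapamil libraries Unc5b lay above every control and in 1 below. It rose 1.45-fold (log2 0.54, SE 0.092, edgeR adjusted p = 2.8e-05) and by 0.47 with the offset.

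Unc5a was the most abundant of the group, at 35.7 CPM per kb in control and 34.1 with verapamil. It ranged from 135 to 155 CPM in control (median 150.1) and from 124 to 161 CPM with verapamil (median 144), and its log2 fold change of -0.065 did not pass (SE 0.045, edgeR adjusted p = 0.21) but reached -0.21 with the offset (p = 9.0e-05). Unc5c ranged from 109 to 129 CPM in control (median 119.9) and from 24.2 to 132 CPM with verapamil (median 88.8), the widest spread among these 5. Its fall of 1.32-fold (log2 -0.40, SE 0.18, edgeR adjusted p = 0.049) was lost in 18 of the 24 fits that left out 1 library and turned to 0.23 with the offset (p = 0.025) and 0.28 with the covariates (p = 0.0025). Unc5d ranged from 16.7 to 20.6 CPM in control (median 19.5) and from 5.86 to 21.3 CPM with verapamil (median 13.6). Its log2 fold change of -0.41 (SE 0.17, edgeR adjusted p = 0.033) was lost without either of 2 verapamil libraries, as sums (p = 0.091) and with the offset (0.052, p = 0.61), and turned to 0.26 with the covariates (p = 0.023). The sums of Unc5c did not pass either (edgeR adjusted p = 0.055).

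The CRMP proteins bind tubulin and carry the signal of Sema3a inside the cell. Of 5, 1 fell, 1 rose and 3 did not pass, with a median log2 fold change of -0.020, where 31.6% of all genes fell and 31.2% rose. Dpysl3 (ENSMUSG00000024501, chromosome 18, 43320984 to 43438286) ranged from 31.8 to 42.2 CPM in control (median 36.3) and from 5.82 to 20.7 CPM with verapamil (median 14.5), with no overlap. Its mean was 37.2 ± 3.02 CPM and 13.9 ± 3.87 CPM (SD, n = 12), a 2.67-fold lower level (log2 -1.42, SE 0.13, edgeR adjusted p = 2.1e-09). The 4 sets gave much the same fall (-1.30, -1.46, -1.56 and -1.38), and the offset gave -1.37.

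Crmp1 ranged from 283.3 to 322 CPM in control (median 306) and from 282.7 to 436 CPM with verapamil (median 352), and 9 of 12 verapamil libraries lay above every control. It rose 1.18-fold (log2 0.23, SE 0.057, edgeR adjusted p = 0.0012), and did not pass as sums (p = 0.059). Dpysl2, the guidance gene with the highest level per exon length (71.5 CPM per kb in control, 70.5 with verapamil), ranged from 289 to 355 CPM in control (median 324) and from 180 to 362 CPM with verapamil (median 336). Its log2 fold change was -0.020 (SE 0.076, edgeR adjusted p = 0.83), and Dpysl5 (-0.083) and Dpysl4 (0.085) did not pass.

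**Figure D4:**
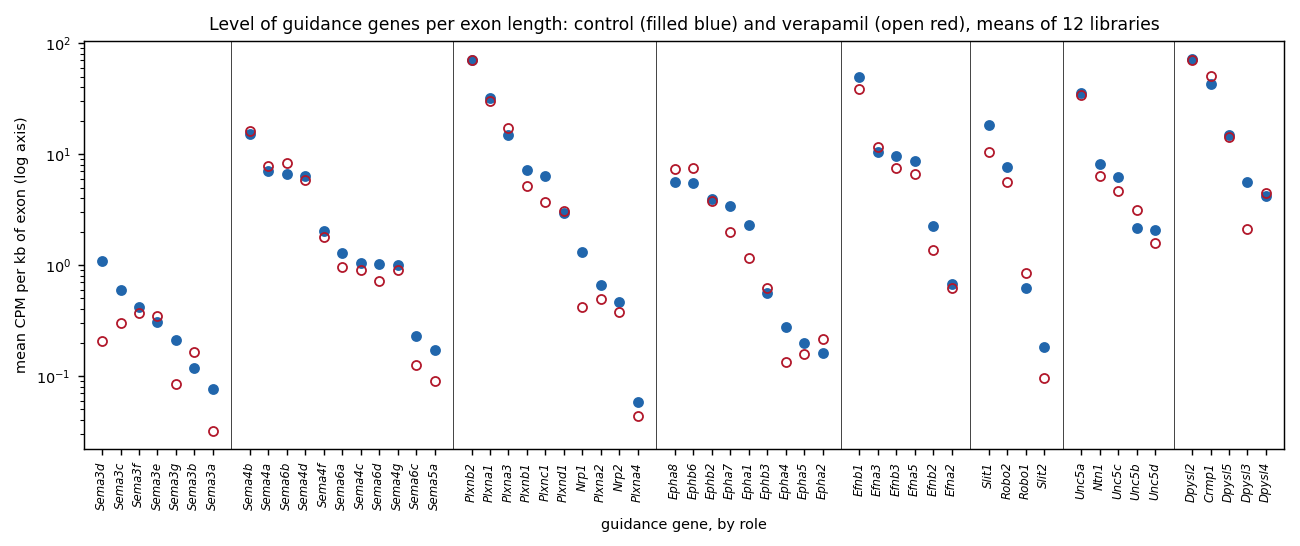
The mean level in CPM per kb of exon is plotted on a log axis for each guidance gene, ordered by control level within a role, with filled blue points for control and open red points for verapamil (12 libraries each). Dpysl2, Plxnb2 and Efnb1 stand highest in control, at 71.5, 70.1 and 49.8 CPM per kb, and Sema3a and Plxna4 stand low, at 0.076 and 0.058.

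Per exon length, the levels spanned from 0.058 CPM per kb (Plxna4) to 71.5 (Dpysl2) in control. The genes at the top of this order, Dpysl2, Plxnb2, Efnb1, Crmp1 and Unc5a, changed by at most 1.30-fold, and among them Efnb1 was the gene that fell. Dpysl2 and Plxnb2, neighbours in the order, differed in control by less than their spread over libraries. Sema3d, Nrp1 and Epha4 had 1.09, 1.32 and 0.28 CPM per kb in control, and 0.21, 0.42 and 0.13 with verapamil. As sums per set and group, the exact two-sided permutation test of 4 against 4 gave its smallest possible p, 0.0286, for each gene that passed the edgeR test and whose lowest, median and highest values are given above, except Unc5c (p = 0.0857) and Unc5d (p = 0.114). These genes were chosen for their changes in the same libraries and p is not adjusted, so the test adds no separate support.

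The guidance genes that fell differed from the others in transcript composition. Their median GC content was 49.1% and their median exon length 8472 bases, against 57.6% and 5832 bases for those that rose and 56.6% for those not called. Over all genes the same order was seen, with 45.2% for genes that fell and 53.4% for genes that rose, at a median exon length of 4225.5 bases over all genes. Of 20 guidance genes under 50% GC, 16 fell and 1 rose, or 80.0% and 5.0%, against 48.8% and 16.2% of all genes under 50% GC. Of 37 with more, 12 fell and 7 rose, or 32.4% and 18.9%, against 13.6% and 46.8% of all such genes. With the offset 10 of the 20 fell and 5 rose, and 14 of the 37 fell and 6 rose, against 26.6% and 35.1% and against 22.4% and 30.9% of all genes. The part of composition, and of the neuronal markers that fell beside these genes, in the results was not tested beyond these fits.

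**Figure D5:**
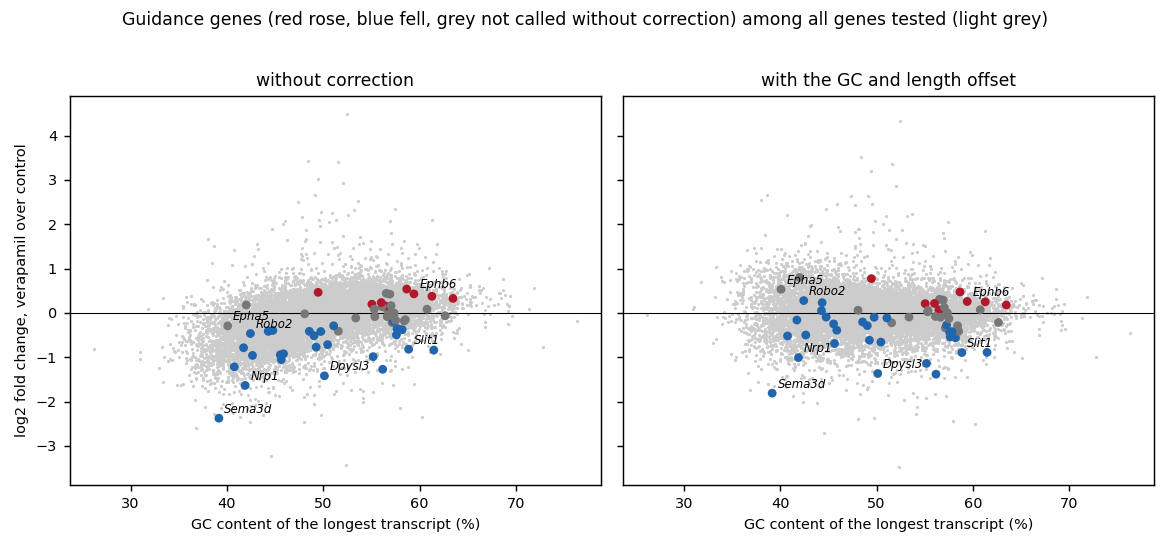
The log2 fold change of verapamil over control is plotted against the GC content of the longest transcript, without correction on the left and with the GC and length offset on the right, for the guidance genes (red rose, blue fell, grey not called) and all genes tested (light grey). The slope over all genes on the left is not seen on the right, where Sema3d, Nrp1, Slit1 and Dpysl3 are still below 0 and Robo2 and Epha5 are above 0.

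Across the experiment sets, the 28 genes that fell had median log2 fold changes of -0.50, -0.87, -0.76 and -0.56 in sets 1 to 4, and the 8 that rose had 0.18, 0.37, 0.44 and 0.16. Both lists were called on these same libraries, which largely fixed the direction of the medians, so they describe size and add no separate support. Tested within each set, with 3 libraries against 3, 18, 26, 21 and 0 guidance genes fell and 2, 10, 7 and 0 rose. Of all genes, 14.0%, 30.9%, 23.4% and 0.0894% fell and 13.7%, 26.3%, 19.9% and 0.317% rose in the same tests. In set 4, where 0 passed by edgeR after adjustment, 12 of the 57 fell and 1 rose at an unadjusted p under 0.05, against 6.72% and 7.68% of all genes. That set includes the verapamil library that stood apart, and the median over the 57 genes there was -0.31, against -0.26, -0.25 and -0.17 in sets 1 to 3.

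Genes that act with or below the guidance receptors were described from a list of 125, of which 113 were tested. Of these, 44 fell, 29 rose and 40 did not pass, with a median log2 fold change of -0.085. These are 38.9% lower and 25.7% higher, against 31.6% and 31.2% of all genes. With the offset 30 fell and 34 rose, or 26.5% and 30.1%, near the 24.6% and 33.1% of all genes. The 6 largest decreases were those of Cntn1, an adhesion molecule of axons (-1.46), the protein kinases Rock2 (-1.29) and Rock1 (-1.25), Elmo1, a partner of Dock proteins in the activation of Rac (-1.22), Adgrl3, a latrophilin (-1.02), and the Ras GTPase activator Rasa1 (-0.92). Rock1 and Rock2, which act on the actin cytoskeleton below guidance receptors, had a GC content of 40.2% and 41.4%, and their values with the offset were -0.57 and -0.72. With the covariates Rock1 (-0.23, edgeR adjusted p = 0.062) and Rasa1 (-0.053, p = 0.56) did not pass. Elmo1 (-1.24), Cntn1 (-0.74), Adgrl3 (-0.56) and Rock2 (-0.24) did. Rasa1 did not pass as sums (p = 0.084). The falls of Rock1 and Rasa1 differed between sets (interaction edgeR adjusted p = 0.026 and 0.0067).

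The 6 largest increases in that list were those of Rac3, a small GTPase (1.14), Rras, a target of the plexin GTPase-activating domain (0.61), Rhod (0.50), the adaptor Nck2 (0.44), Farp2, an exchange factor below Sema3a and plexin-A (0.39), and Srgap3, a Slit-Robo GTPase activator (0.36). Rac3 ranged from 7.47 to 15.8 CPM in control (median 12.4) and from 22.4 to 32.7 CPM with verapamil (median 26.9), with no overlap, and rose 2.20-fold (SE 0.098). With the offset Rras did not pass (0.29, edgeR adjusted p = 0.15).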

How the data were processed

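RNA of untreated and verapamil-treated MIN6 cells was sequenced in 24 libraries, 12 per group. The deposited values are raw counts of reads for each gene. Per the labels, the authors demultiplexed with bcl2fastq 2.20, trimmed with Trimmomatic 0.39, aligned to GRCm38 with HISAT2 2.1.0 and counted with HTSeq 0.9.1. Neither the strand option nor the annotation used for counting is given in the sources used here, and library kit and RNA input differ between sources. The authors' own fold changes and p-values stand beside the counts and were not used.

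Groups came from the labels. The experiment set was read from the first digit of each label's description. For 4 columns (2 control, 2 verapamil) the name fits more than 1 sample, so they have a group and no number, and set 4 was assigned by elimination. No 2 libraries of a group were alike within sampling noise (lowest chi-square per degree of freedom 5.72).

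Counts were analysed in R 4.3.3 with edgeR 4.0.16 (filterByExpr with a minimum count of 10 and a minimum total of 15, TMM, quasi-likelihood test without covariates, Benjamini-Hochberg over 12306 genes, threshold 0.05). SE is the size of the log2 fold change over the square root of F. CPM per kb divides mean CPM by the union of exons in GENCODE M21. The offset fitted natural splines (4 degrees of freedom) of transcript GC content and log2 exon length to each library's deviation from the control mean of log2 CPM (prior count 2). The covariates were each library's slopes on both, and they inflate the variance of the treatment term 1.98-fold. Other alternatives were DESeq2 1.42.0, its size factors, no filter, sums per set, blocks, and leaving out each set or library. The within-set tests and the values of each gene without 1 library were added after the data were seen. The fit without covariates, over libraries and over sums, was tested on simulated counts with few changed genes. Those counts had the same spread in both groups and no GC or length trend, unlike the data. The offset, covariate, block and interaction fits were not simulated. Promoters are RefSeq windows of GRCm38.p6, found for 45 of the 57 genes.

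The members, the lists and the rules were chosen with earlier results of these data known. Values over libraries are given for up to 4 genes of each role with the largest changes among those called with a mean of at least 1 CPM, and for the gene of each role with the highest CPM per kb in control. Of the signalling list, the 6 largest increases and decreases are named. Totals per library ran from 12590476 to 44806556 counts, so that 1 CPM stands for few reads.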

Additional observations from a re-analysis of the deposited data

Results flagged for a closer look

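The effect of verapamil on Plxnc1 differed between the experiment sets (interaction of set and treatment, edgeR adjusted p = 0.0425). The log2 fold changes were -0.53, -1.23, -1.26 and -0.35 in sets 1 to 4, so that each set was lower with verapamil but by different amounts.

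The effect on Epha2 also differed between the sets (edgeR adjusted p = 0.0371), with log2 fold changes of 0.13, 0.81, 1.70 and -0.60. Epha2 was at 3 to 32 counts per library in control and 14 to 58 with verapamil, so that each set rests on few counts. Of all genes, 9.72% passed this interaction test.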

How the results depend on the processing

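Counts of guidance genes that rose or fell stayed within 1.5 times the reported 8 and 28 except with sums per set (5 rose) and with GC and length covariates (18 fell). Leaving out 1 library gave 8 to 10 that rose and 26 to 29 that fell, and over all genes 3630 to 3942 and 3707 to 4023. Of the signalling list, 19 rose and 27 fell with sums, 22 fell with covariates, 17 rose and 29 fell without set 2, and 18 rose without set 3. Of all genes, 2124 fell with sums, 1741 with covariates and 2518 without set 2.

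Directions reversed as follows (log2). With covariates: Sema4b -0.0016, Plxna4 0.040, Nrp2 0.057, Plxnd1 -0.043, Epha5 0.42, Efna3 -0.10, Robo2 0.18, Unc5d 0.26, Unc5c 0.28, Dpysl2 0.21 and Dpysl4 -0.17. With the offset: Plxnb2 0.0016, Epha5 0.53, Ephb2 0.055, Efna3 -0.080, Robo2 0.28, Unc5d 0.052, Unc5c 0.23 and Dpysl2 0.061. With the set as a replicate block plus the offset: Plxnb2 0.0013, Epha5 0.54, Ephb2 0.053, Efna3 -0.080, Robo2 0.28, Unc5d 0.047, Unc5c 0.22 and Dpysl2 0.060. With the replicate number as a block: Plxnb2 0.016 and Dpysl2 0.020. Plxnb2 was 0.0016 with DESeq2's size factors and 0.0015 with DESeq2. Without set 1, Plxnb2 was 0.040 and Efna2 0.058, and without set 4, Plxnb2 was 0.041 and Dpysl2 0.023. The cause was not tested.

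Same-numbered control and verapamil libraries did not deviate together (r of -0.051 to 0.11 over 10 pairs). The means of control and verapamil libraries of the same set gave r of 0.016 to 0.069. Since r was as low for the sets, it cannot decide whether the numbers pair the samples. With the set as a replicate block 8 guidance genes rose and 28 fell.

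Leaving out 1 library ended the calls of Sema4f, Nrp2 and Unc5d in 1 or 2 of 24 fits and that of Unc5c in 18. It added calls for Sema3b, Sema4c, Sema4g, Sema4b and Efna3 in 1 to 3 fits each. Verapamil varied more than control, and genes under 1 CPM rest on few counts.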
